A study of Mus musculus with 12 samples.

Results

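The immediate early genes Fos, Fosb, Fosl2, Jun, Junb, Jund, Egr1, Ier2, Arc and Npas4 were followed through mouse astrocyte cultures in which the RNA-binding protein PTB was knocked down. These 10 genes were chosen by name, out of 54356 genes in the deposited quantifications. Fos, Fosl2, Jun, Junb, Jund and Egr1 were among the 14607 genes with enough reads to be tested, whereas Fosb, Ier2, Arc and Npas4 had too few. Astrocytes of C57BL/6 mice came from midbrain or cortex, and the series follows their expression as PTB is depleted to turn them towards neurons. Cultures labelled shPTB carried a short hairpin RNA against PTB and were kept in neuronal differentiation medium for 4 weeks or 2 weeks. Mock cultures of the same regions stayed in growth medium. Because every hairpin culture also changed medium, the effects of hairpin and medium cannot be told apart. Each of the 6 groups held 2 libraries, and the labels do not say whether these came from separate cultures or animals. The p-values measure only spread between libraries within groups, estimated for each gene over all 6 groups together.

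Immediate early genes are transcribed within minutes of a stimulus by factors already present in the cell, such as SRF with its ternary complex partners and CREB, so that no new protein has to be made first. Most of their RNAs and proteins are short-lived, and growth factors, serum, stress and neuronal activity all induce them. Fos and Jun proteins pair through leucine zippers to form AP-1, which binds the word TGANTCA, while Egr1 is a zinc finger factor and Arc and Npas4 are widely used as marks of active neurons. In astrocytes in culture several of them respond to growth factors and injury.

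The promoters of Fos and Jun are shown because these were the members that were lower in shPTB cultures in every comparison with mock. Each line gives the 250 bases before the gene's start, 5′ to 3′ on the gene's strand, from RefSeq on GRCm38.p6, and positions are counted back from the start. In Fos (chr12:85473640-85473889, plus strand) capitals mark the CRE core TGACG at -129 to -125 and at -66 to -62, and the TATA word TATAAA at -33 to -28. In Jun (chr4:95052223-95052472, minus strand) they mark the AP-1-like word TGACATCA at -45 to -38.
Fos: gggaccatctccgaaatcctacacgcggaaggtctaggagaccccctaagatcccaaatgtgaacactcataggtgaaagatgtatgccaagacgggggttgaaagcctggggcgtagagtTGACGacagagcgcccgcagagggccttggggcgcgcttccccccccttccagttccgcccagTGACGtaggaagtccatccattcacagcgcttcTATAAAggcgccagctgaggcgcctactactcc
Jun: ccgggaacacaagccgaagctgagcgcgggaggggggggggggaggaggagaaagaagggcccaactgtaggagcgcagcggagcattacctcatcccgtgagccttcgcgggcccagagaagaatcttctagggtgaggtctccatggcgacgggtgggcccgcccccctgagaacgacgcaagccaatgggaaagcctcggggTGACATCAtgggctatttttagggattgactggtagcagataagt

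Searched on both strands, with overlaps allowed, TGACG stood in 17.8%, TATAAA in 12.4% and TGACATCA in 2.93% of 32851 RefSeq promoter windows of this length. The full AP-1 word TGANTCA (6.75% of windows) and the CArG box that SRF binds (1.47% of windows) were found in none of the 7 members with a window, namely Fos, Fosb, Fosl2, Jun, Junb, Jund and Npas4. Fosb, Junb and Npas4 also held TGACG, at -60 to -56 in Fosb, at -106 to -102 in Junb and at -179 to -175 and -169 to -165 in Npas4. These matches describe letters in a window of 250 bases. Sites farther upstream were not searched, so a word missing here may still stand in the gene's promoter. Binding was not measured.

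Libraries held 6022098 to 11385761 reads. Mitochondrially encoded genes took 36.4 to 48.3% of reads in shPTB libraries and 16.8 to 22.7% in mock libraries. Levels are given in CPM, reads scaled to library size and by TMM, which assumes that most genes do not differ between libraries. Scaling to total reads instead lowered the median log2 fold change of all tested genes against mock to -1.01 from -0.15 at 4 weeks and -0.74 from -0.07 at 2 weeks in midbrain, and to -1.21 from -0.12 at 4 weeks and -0.85 from -0.11 at 2 weeks in cortex. Ptbp1, the gene of PTB, was lower than mock at 2 weeks in midbrain (2.34-fold) and at 4 and 2 weeks in cortex (2.36-fold and 2.89-fold), while at 4 weeks in midbrain its log2 fold change of -0.50 ± 0.20 did not pass (edgeR adjusted p = 0.0744). In these bulk libraries fewer cells of a type and less RNA per cell cannot be told apart. Microglia markers were lower in 11 of 12 genes in each of the 4 comparisons, with summed levels of 25.6 to 113 CPM in shPTB and 1377 to 2005 CPM in mock libraries; Itgam was at 0 reads at 4 weeks in midbrain. Astrocyte markers summed to 8505 to 16290 CPM in shPTB and 11600 to 22670 CPM in mock libraries, with none at 0. Pan-neuronal markers summed to 84.4 to 192 CPM in shPTB and 175 to 292 CPM in mock libraries, with Elavl4 at 0 reads in 3 of 4 shPTB groups. Both lists moved in both directions. Of 12 astrocyte markers 5, 3, 5 and 5 were higher and 4, 2, 4 and 2 lower, at 4 and 2 weeks in midbrain and then in cortex. Of 10 tested pan-neuronal markers 2, 2, 1 and 4 were higher and 6, 3, 4 and 3 lower. The shares of all genes are given below.

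The 2 mock libraries of a region differed far more than the 2 of any shPTB group, and the members show it. Cortex mock library 1 had 840 CPM of Jund and library 2 had 1648 CPM, and in both regions library 1 was higher for Jun, Junb and Egr1 and lower for Fos, Fosl2 and Jund. Over the tested genes with enough reads, the replicates differed beyond counting error (unadjusted chi-square p under 0.05) in 61.3% of genes in midbrain mock and 66.3% in cortex mock, against 11.7 to 13.5% in the shPTB groups. Without both mock libraries numbered 1, or both numbered 2, the 4 comparisons with mock together held more calls among the members than with all libraries. More of all genes were called there too. Both settings were chosen after seeing the data. A lone mock library is then assumed to vary like the shPTB groups. With all libraries, the spread shared over the 6 groups may understate that of mock and overstate that of shPTB groups. Fits of only the groups compared called 24% of all genes between 4 and 2 weeks in cortex and 32.3% in midbrain. With all groups these shares were 2.77% and 2.66%. Between the mock cultures of the 2 regions such fits called 0%, against 2.19% with all groups.

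Jund was by far the most abundant member in every group. Its length-adjusted level, the deposited TPM summed per gene, averaged 1146 ± 33.3 in midbrain at 4 weeks, 919 ± 0.402 in midbrain at 2 weeks and 922 ± 377 in midbrain mock, and 632 ± 26, 777 ± 37.5 and 792 ± 418 in the same order in cortex (SD, n = 2). Every other member was at 16.1 TPM or less in each library. In mock cultures Fos and Jun came next, at 13.4 ± 2.57 and 13 ± 2.16 TPM in midbrain and 8.53 ± 1.76 and 12.1 ± 5.74 TPM in cortex, and their ranges overlapped. Junb followed at 4.24 ± 3.28 TPM in midbrain and 5.32 ± 3.85 TPM in cortex mock, and Fosl2 at 2.02 ± 0.257 and 0.740 ± 0.263 TPM. Junb overlapped Fosl2 in midbrain mock and Fos in cortex mock. The order among these was another one after shPTB: at 4 weeks in midbrain it ran Fos, Fosl2, Junb and Jun, with 5.0 ± 0.191, 2.28 ± 0.399, 1.80 ± 0.0963 and 1.58 ± 0.404 TPM, where Junb and Jun overlapped. At 4 weeks in cortex it ran Jun, Fosl2, Fos and Junb, with 1.56 ± 0.207, 1.09 ± 0.165, 0.777 ± 0.151 and 0.625 ± 0.0422 TPM, with no overlap between neighbours. Egr1 reached at most 0.692 TPM in any library and Fosb, Ier2, Arc and Npas4 at most 0.506 TPM. The order below Jund depends on the length correction. In CPM, which has none, Fosl2 averaged 48.5 and Fos 22.8 at 4 weeks in midbrain. In cortex mock Fosl2 averaged 12.2 and Junb 9.21 CPM. Whether reads grow with transcript length in this protocol was not tested.

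**Figure D1:**
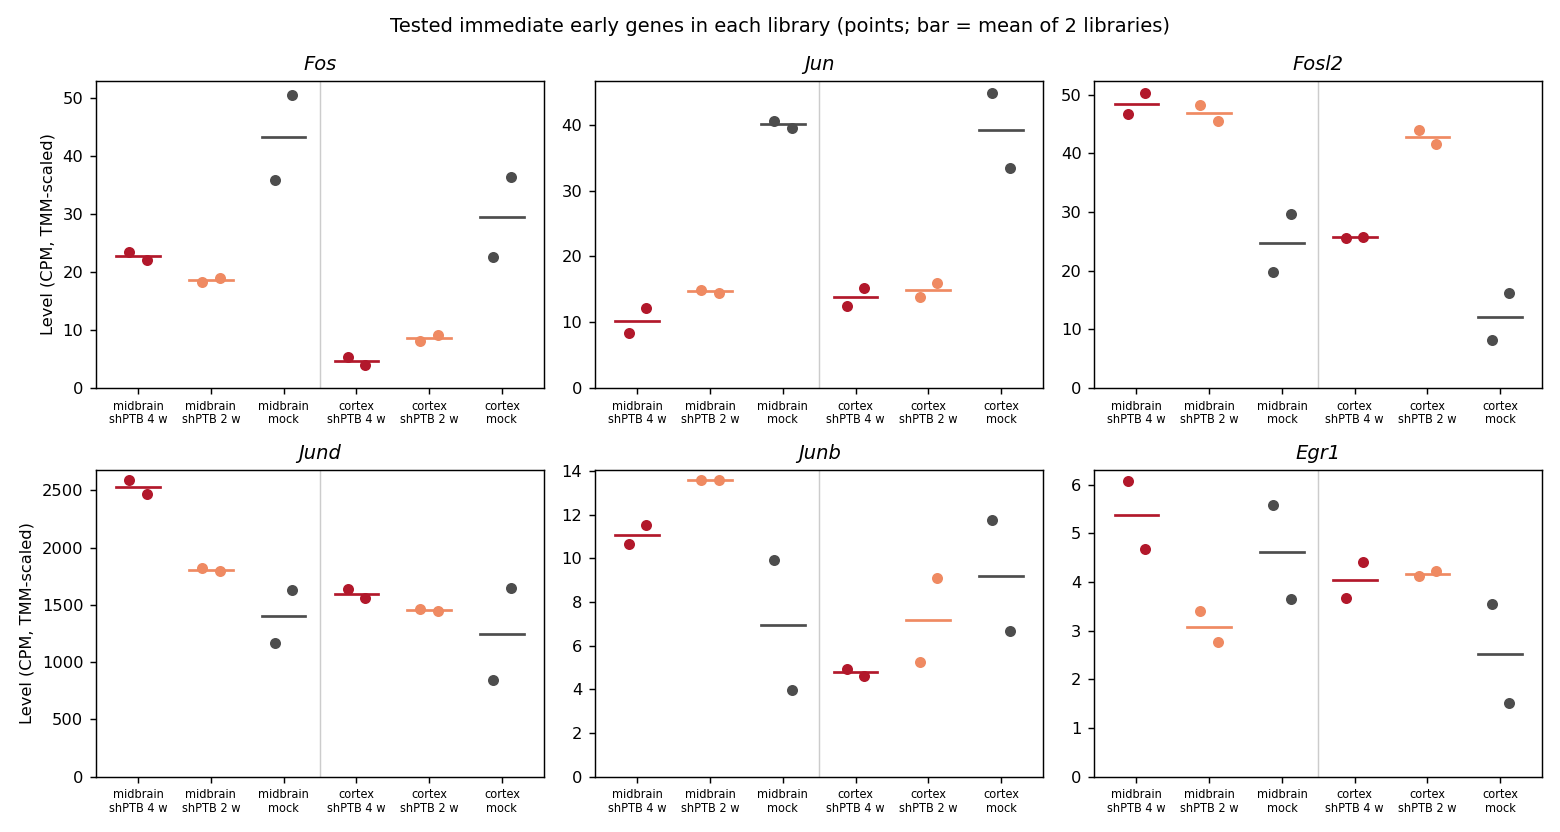
Level in CPM (TMM-scaled, vertical axis from 0, separate scale per gene) of the 6 tested members in each of 12 libraries, with midbrain left and cortex right in each panel and shPTB 4 weeks, shPTB 2 weeks and mock from left to right. Points are libraries and bars are means of 2; Fos and Jun sit lower in shPTB than in mock libraries of the same region and Fosl2 higher, while the mock points of Jund, Junb and Egr1 lie far apart.

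Fos and Jun fell in both regions at both times, while Fosl2, a Fos family member without the strong activation domain of Fos, was higher than mock in all 4 comparisons. Of the 6 tested members, 2 were higher and 2 lower at 4 weeks in midbrain, against 18.7% and 20.4% of all tested genes (39.2% called in all). At 2 weeks in midbrain 1 was higher and 2 lower, against 15.9% and 14.7% (30.6% in all). In cortex 1 was higher and 2 lower at 4 weeks, against 18.5% and 20.9% (39.4% in all), and 1 higher and 2 lower at 2 weeks, against 17.5% and 17.6% (35% in all). With 6 genes, nothing particular to the set is read from these counts. The 2 comparisons of a region share its mock libraries. The median log2 fold change of the 6 members was 0.44, -0.11, -0.30 and -0.07 in that order of comparisons, and -0.47, -0.78, -1.37 and -0.80 when libraries were scaled to total reads, beside the shifts of all genes given above. Scaled to total reads, 0 members were higher and 2 lower at 4 weeks and at 2 weeks in midbrain, 0 higher and 4 lower at 4 weeks in cortex, and 1 higher and 3 lower at 2 weeks in cortex. The same scaling called 7.46% of all genes higher and 49.6% lower at 4 weeks in midbrain, 7.99% and 38.8% at 2 weeks in midbrain, 5.85% and 57.1% at 4 weeks in cortex, and 8.27% and 41.8% at 2 weeks in cortex.

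Fos (ENSMUSG00000021250.13, chromosome 12, 85473890 to 85477273, plus strand, GRCm38) encodes the partner of Jun after which the family is named. In midbrain it stood at 23.5 and 22.1 CPM at 4 weeks, 18.2 and 19.0 CPM at 2 weeks, and 35.9 and 50.7 CPM in mock. In cortex it stood at 5.31 and 4.04 CPM at 4 weeks, 8.05 and 9.09 CPM at 2 weeks, and 22.7 and 36.4 CPM in mock. All shPTB libraries thus lay under both mock libraries of their region, and the cortical ones under every midbrain library. The fall was 6.29-fold at 4 weeks in cortex (log2 fold change -2.65 ± 0.29 SE, edgeR adjusted p = 4.96e-05) and 3.43-fold at 2 weeks (-1.78 ± 0.27, adjusted p = 0.000565). In midbrain it was 2.33-fold at 2 weeks (-1.22 ± 0.25, adjusted p = 0.00421) and 1.90-fold at 4 weeks (-0.92 ± 0.25, adjusted p = 0.0138). The 4-week midbrain call ended without mock library 2 (-0.66, edgeR adjusted p = 0.0696), 4-week library 1 (-0.97, adjusted p = 0.0738) or 4-week library 2 (-0.89, adjusted p = 0.0949), within a range of 1.18e-07 to 0.0949 over 22 alternatives; the other 3 calls held in every alternative run.

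Jun (ENSMUSG00000052684.4, chromosome 4, 95049034 to 95052222, minus strand) encodes the founding Jun protein, which can also pair with itself. Its level in midbrain was 8.29 and 12.2 CPM at 4 weeks, 14.9 and 14.5 CPM at 2 weeks, and 40.6 and 39.6 CPM in mock. Cortex gave 12.5 and 15.2 CPM at 4 weeks, 13.9 and 15.9 CPM at 2 weeks, and 44.9 and 33.5 CPM in mock. The 8 shPTB libraries of both regions lay between 8.29 and 15.9 CPM and the 4 mock libraries between 33.5 and 44.9 CPM, without overlap. Jun fell 3.91-fold at 4 weeks (-1.97 ± 0.23, edgeR adjusted p = 8.92e-05) and 2.73-fold at 2 weeks in midbrain (-1.45 ± 0.22, adjusted p = 0.000696). In cortex it fell 2.84-fold at 4 weeks (-1.51 ± 0.23, adjusted p = 0.000458) and 2.63-fold at 2 weeks (-1.40 ± 0.23, adjusted p = 0.000867). None of these 4 calls was lost in any of the 22 alternatives. Jun has 1 annotated transcript, and an antisense gene, Junos, overlaps it.

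Fosl2 (ENSMUSG00000029135.10, chromosome 5, 32135801 to 32157842, plus strand), which encodes the Fos-related antigen FRA2, ran the other way. In midbrain it had 46.7 and 50.2 CPM at 4 weeks, 48.3 and 45.6 CPM at 2 weeks, and 19.8 and 29.7 CPM in mock. In cortex it had 25.6 and 25.8 CPM at 4 weeks, 44.0 and 41.5 CPM at 2 weeks, and 8.19 and 16.2 CPM in mock. No shPTB library overlapped the mock libraries of its region. Fosl2 was 1.96-fold higher at 4 weeks (0.97 ± 0.28, edgeR adjusted p = 0.0191) and 1.90-fold higher at 2 weeks in midbrain (0.92 ± 0.28, adjusted p = 0.0287), and 2.12-fold higher at 4 weeks (1.09 ± 0.29, adjusted p = 0.0130) and 3.53-fold higher at 2 weeks in cortex (1.82 ± 0.29, adjusted p = 0.000802). Scaled to total reads, the first 3 of these calls ended, with log2 fold changes of 0.12 (adjusted p = 0.599), 0.28 (0.257) and 0.06 (0.792), and only the rise at 2 weeks in cortex remained (1.15). Each of those 3 calls was also lost when single libraries were left out. At 4 weeks in midbrain this held for mock library 1 (0.70, edgeR adjusted p = 0.113) and for 4-week libraries 1 and 2 (adjusted p = 0.0714 and 0.102), and the call ended too with total-read scaling without mitochondrial genes (0.50, adjusted p = 0.0651). At 2 weeks in midbrain it held for 9 of 12 libraries, with 0.65 as the lowest value, without mock library 1. Among them were the 4-week and the cortical shPTB libraries, which take no part in that comparison and left the value at 0.92. At 4 weeks in cortex it held for mock library 1 (0.66, adjusted p = 0.0662) and for 4-week libraries 1 and 2 (adjusted p = 0.0657 and 0.0649), while without mock library 2 the value was 1.64. Over the 22 alternatives their adjusted p ran up to 0.599, 0.257 and 0.792, and from 3.44e-09, 6.48e-09 and 3.17e-09 up. Salmon assigned 7.0 to 30.0% of Fosl2 reads per library to transcripts with a retained intron.

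**Figure D2:**
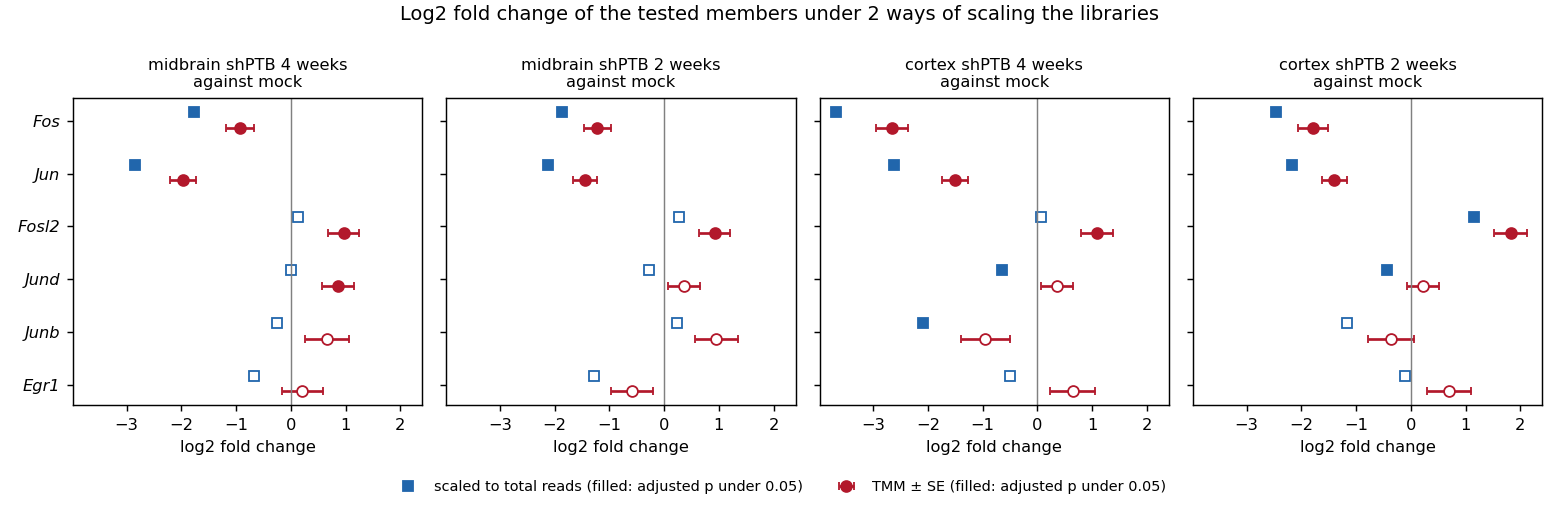
Log2 fold change against mock (horizontal axis, the same in all panels) of the 6 tested members in the 4 comparisons, as red circles with standard errors under TMM scaling and as blue squares when libraries were scaled to total reads; filled symbols passed at an adjusted p of 0.05. Fos and Jun lie left of 0 and filled under both scalings, whereas Fosl2 at 2 weeks in cortex is the only filled square right of 0.

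Jund (ENSMUSG00000071076.6, chromosome 8, 70698949 to 70700616, plus strand) encodes the Jun protein that is present in resting cells and in many settings restrains growth. It had 2593 and 2468 CPM at 4 weeks, 1820 and 1794 CPM at 2 weeks and 1170 and 1630 CPM in mock libraries of midbrain. In cortex it had 1641 and 1556 CPM at 4 weeks, 1465 and 1444 CPM at 2 weeks, and 840 and 1648 CPM in mock. The mock libraries of cortex enclosed all 4 cortical shPTB libraries, while in midbrain both times lay above mock. Jund was called only at 4 weeks in midbrain, 1.81-fold higher (0.85 ± 0.29, edgeR adjusted p = 0.0384). That call was lost in 12 of 22 alternatives, among them 9 of the 12 left-out libraries (0.63 without midbrain mock library 1) and scaling to total reads (0.0031, adjusted p = 0.988). Some of those libraries, the 2-week and the cortical shPTB ones, take no part in the comparison and left the value at 0.85 to 0.86. The other comparisons gave 0.37 ± 0.29 at 2 weeks in midbrain (adjusted p = 0.360), 0.36 ± 0.29 at 4 weeks in cortex (0.348) and 0.23 ± 0.29 at 2 weeks in cortex (0.573). Scaled to total reads these turned to -0.28 (edgeR adjusted p = 0.175), -0.65 (0.00626) and -0.44 (0.0466). Both cortical values thus passed as lower, where the medians of all genes under that scaling were -1.21 and -0.85. Without cortex mock library 2 the cortical values passed, at 0.92 (edgeR adjusted p = 0.00524) and 0.79 (adjusted p = 0.0137) at 4 and 2 weeks, and without cortex mock library 1 they were -0.054 and -0.19.

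Junb, whose protein is a weaker activator than Jun, had higher levels than mock in midbrain and lower mean levels in cortex, with no call when all libraries were fitted. Junb (ENSMUSG00000052837.6, chromosome 8, 84974484 to 84978718, minus strand) had 10.6 and 11.5 CPM at 4 weeks, 13.6 and 13.6 CPM at 2 weeks and 9.93 and 3.98 CPM in mock libraries of midbrain. In cortex it had 4.95 and 4.61 CPM at 4 weeks, 5.24 and 9.09 CPM at 2 weeks and 11.7 and 6.68 CPM in mock. Midbrain shPTB libraries were thus above both mock libraries and 4-week cortical ones below them. Log2 fold changes were 0.66 ± 0.41 at 4 weeks (edgeR adjusted p = 0.216) and 0.96 ± 0.40 at 2 weeks in midbrain (adjusted p = 0.0918), and -0.95 ± 0.44 at 4 weeks (adjusted p = 0.111) and -0.36 ± 0.42 at 2 weeks in cortex (adjusted p = 0.531). These values moved with single libraries, mostly mock ones. Without midbrain mock library 1 Junb passed in midbrain at 4 weeks (1.47, edgeR adjusted p = 0.0151) and 2 weeks (1.76, adjusted p = 0.0071), and without midbrain mock library 2 it was at 0.16 and 0.45. Without cortex mock library 2 it passed at 4 weeks in cortex (-1.30), and without cortex mock library 1 it was at -0.49. It passed there too without either midbrain mock library. These take no part in that comparison and left the value at -0.96, beside -0.95 with all libraries. At 2 weeks in cortex leaving out 1 library gave -0.82 to 0.10, the ends coming without 2-week library 2 and cortex mock library 1. Scaled to total reads the 4-week value in midbrain was -0.25 and that in cortex passed the test. Junb overlaps Prdx2 on the other strand, although the last 500 bases of its longest transcript share no 31-base word with any other gene, and the same held for each of the 10 members.

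Egr1 (ENSMUSG00000038418.7, chromosome 18, 34859823 to 34864984, plus strand), the zinc finger factor that many growth signals induce, rested on 19 to 103 reads per library. It had 6.08 and 4.69 CPM at 4 weeks, 3.40 and 2.76 CPM at 2 weeks and 5.59 and 3.66 CPM in mock libraries of midbrain. Cortex gave 3.66 and 4.42 CPM at 4 weeks, 4.12 and 4.22 CPM at 2 weeks, and 3.54 and 1.51 CPM in mock. Cortical shPTB libraries were all above cortical mock, and at 4 weeks in midbrain the groups overlapped. No comparison passed with all libraries: the log2 fold changes were 0.21 ± 0.38 at 4 weeks and -0.59 ± 0.39 at 2 weeks in midbrain (edgeR adjusted p = 0.674 and 0.268) and 0.65 ± 0.41 and 0.69 ± 0.41 at 4 and 2 weeks in cortex (adjusted p = 0.236 and 0.209). Under total-read scaling the 3 positive values turned negative, to -0.68, -0.50 and -0.11. Without cortex mock library 1 Egr1 passed in cortex at 4 weeks (1.40, edgeR adjusted p = 0.0285) and 2 weeks (1.44, adjusted p = 0.0267), and without cortex mock library 2 it was at 0.18 and 0.23. In midbrain, leaving out 1 library gave -0.057 to 0.55 at 4 weeks and -0.86 to -0.26 at 2 weeks, without a call.

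Fosb, Npas4, Arc and Ier2 were close to the limit of detection, where 3 reads stand for 0.331 to 0.577 CPM in shPTB and 0.163 to 0.239 CPM in mock libraries. Npas4 (ENSMUSG00000045903.9, chromosome 19, 4984355 to 4990316, minus strand), an activity-dependent factor best known from neurons, had 0 and 0 reads at 4 weeks, 1 and 0 reads at 2 weeks and 9 and 6 reads in mock libraries of midbrain. In cortex it had 0 reads in all 4 shPTB libraries and 3 and 4 reads in mock. It was thus at 0 in 7 of 8 shPTB libraries and in no mock library. In midbrain at 4 weeks the exact 95% interval of the ratio of Npas4 to mock was 0 to 0.645, a fall of at least 1.55-fold. With 3 reads over the group put in place of 0, it was 2.16-fold lower. At 2 weeks it was 7.89-fold lower (exact 95% interval 1.21 to 332). The values at both times rest on 15 mock reads, of which Salmon assigned the 9 of mock library 1 to a transcript with a retained intron and the 6 of mock library 2 to the coding transcript. In cortex a count of 0 leaves any fall undetectable at this depth.

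Fosb (ENSMUSG00000003545.3, chromosome 7, 19302696 to 19310051, minus strand), a Fos paralogue, had 0 and 0 reads at 4 weeks, 0 and 1 at 2 weeks and 4 and 2 in mock libraries of midbrain. In cortex it had 0 and 0 reads at 4 weeks, 1 and 0 at 2 weeks, and 7 and 4 in mock. With 3 reads over the group put in place of 0, it was 1.31-fold lower at 4 weeks in cortex, while the exact 95% interval of the ratio to mock, 0 to 1.11, included 1. The 2-week ratios were 3.16-fold lower in midbrain (interval 0.383 to 145) and 4.25-fold lower in cortex (interval 0.618 to 183), and both intervals included 1. Over all libraries Fosb had 2 reads in shPTB and 17 in mock cultures, and Npas4 had 1 in shPTB and 22 in mock cultures.

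**Figure D3:**
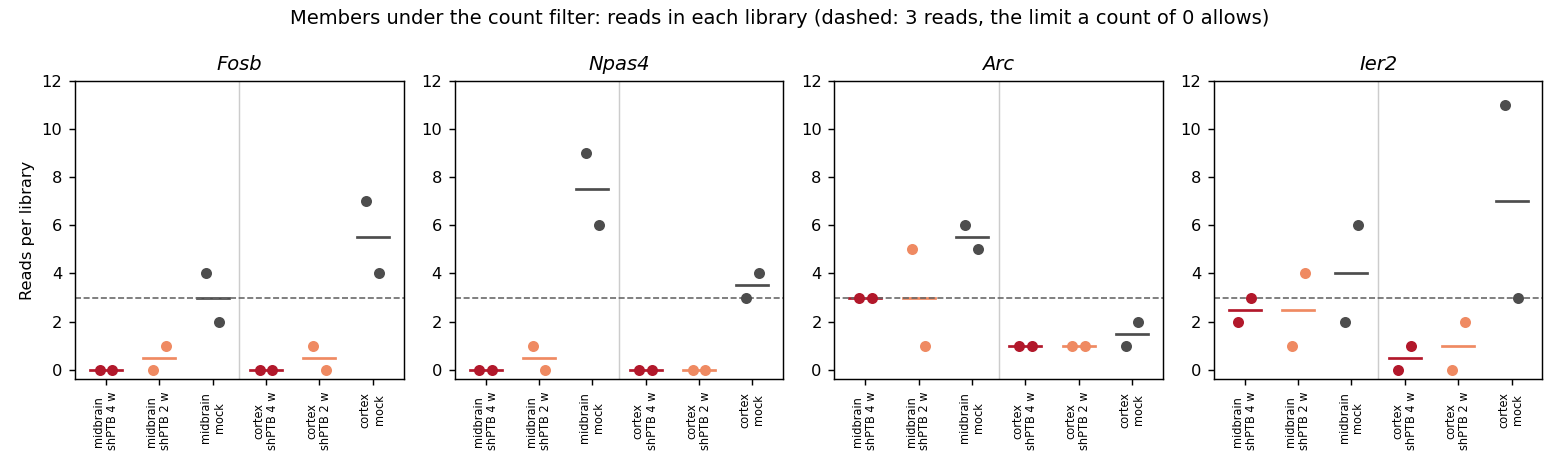
Reads per library (vertical axis) of Fosb, Npas4, Arc and Ier2, with midbrain left and cortex right and shPTB 4 weeks, shPTB 2 weeks and mock from left to right; points are libraries, bars are means of 2, and the dashed line marks 3 reads, the limit that a count of 0 allows. Npas4 is at 0 reads in 7 of 8 shPTB libraries and at 3 to 9 in mock, whereas Arc has 1 to 5 reads in shPTB and 1 to 6 in mock libraries.

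Arc (ENSMUSG00000022602.14, chromosome 15, 74669083 to 74672570, minus strand), which encodes a capsid-forming protein of active synapses, had 3 and 3 reads at 4 weeks, 5 and 1 at 2 weeks and 6 and 5 in mock libraries of midbrain. Cortex gave 1 read in each of the 4 shPTB libraries and 1 and 2 reads in mock. The ratios to mock were 1.26 at 4 weeks (exact 95% interval 0.383 to 3.72) and 1.04 at 2 weeks in midbrain (0.315 to 3.06), and 1.86 (0.156 to 16.3) and 1.73 (0.144 to 15.1) at 4 and 2 weeks in cortex. Ier2 (ENSMUSG00000053560.4, chromosome 8, 84661331 to 84662852, minus strand), a small nuclear protein gene, had 2 and 3 reads at 4 weeks, 1 and 4 at 2 weeks and 2 and 6 in mock libraries of midbrain. In cortex Ier2 had 0 and 1 reads at 4 weeks, 0 and 2 at 2 weeks and 11 and 3 in mock, giving ratios of 5.01-fold lower at 4 weeks (interval 0.763 to 212) and 2.70-fold lower at 2 weeks (interval 0.621 to 24.5). All intervals and limits cover counting error only. When all genes were tested without a count filter, none of the 4 passed in a comparison with mock, the nearest being Npas4 at 4 weeks in midbrain (edgeR unadjusted p = 0.0374, adjusted p = 0.127).

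Between 4 and 2 weeks no tested member passed in either region. In cortex edgeR called 0 of 6, against 2.77% of all genes (0.548% higher and 2.22% lower), with 2 at an unadjusted p under 0.05 and 0 called by DESeq2. Fos was at 5.31 and 4.04 CPM at 4 weeks against 8.05 and 9.09 CPM at 2 weeks in cortex, a log2 fold change of -0.87 ± 0.31 (edgeR adjusted p = 0.204), and Fosl2 gave -0.73 ± 0.29 (adjusted p = 0.253). In midbrain edgeR called 0 of 6, against 2.66% of all genes (0.958% higher and 1.7% lower), with 1 at an unadjusted p under 0.05 and 0 called by DESeq2. There the lowest p was that of Jun, at 8.29 and 12.2 CPM at 4 weeks against 14.9 and 14.5 CPM at 2 weeks (-0.52 ± 0.23, edgeR adjusted p = 0.279). Fos gave 0.29 ± 0.26 in midbrain (adjusted p = 0.608). Where only the 2 groups compared were fitted, 3 members passed in midbrain and 2 in cortex. Those fits called 32.3% of all genes in midbrain and 24% in cortex, so these counts are not particular to the members.

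Fos separated the regions after 4 weeks of shPTB. At 4 weeks midbrain cultures had 23.5 and 22.1 CPM and cortical ones 5.31 and 4.04 CPM, a 4.86-fold difference (2.28 ± 0.30, edgeR adjusted p = 0.000809). It was the 1 member called of 6, against 7.99% of all genes (5.48% higher and 2.51% lower in midbrain), and the call held in every alternative run. In the same libraries Ptbp1 also differed, with means of 162 ± 9.84 CPM in midbrain and 89.9 ± 0.931 CPM in cortex (0.85 ± 0.21, edgeR adjusted p = 0.0276). Fibroblast and pericyte markers summed to 250.2 and 264 CPM in midbrain and 63.6 and 66.7 CPM in cortex at 4 weeks, and the part of either in the Fos difference was not tested. At 2 weeks Fos was 2.17-fold higher in midbrain (1.12 ± 0.27, adjusted p = 0.0570), with 18.2 and 19.0 CPM against 8.05 and 9.09 CPM. There edgeR called 0 of 6 members, against 2.94% of all genes (2.01% higher and 0.931% lower), with 1 at an unadjusted p under 0.05, while DESeq2 called 1. Fos also passed when each of the 4 mock libraries was left out in turn. Mock libraries take no part in that comparison, and the value without each stayed at 1.12. In mock the groups overlapped for Fos, at 35.9 and 50.7 CPM in midbrain and 22.7 and 36.4 CPM in cortex (0.55 ± 0.25, edgeR adjusted p = 0.495). Mock cultures gave 0 calls among 6, against 2.19% of all genes (1.25% higher and 0.938% lower), with 3 at an unadjusted p under 0.05 and 0 by DESeq2. The nearest was Fosl2, with 19.8 and 29.7 CPM in midbrain mock and 8.19 and 16.2 CPM in cortex mock (1.03 ± 0.29, edgeR adjusted p = 0.123).

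Tested directly, the response of Fos at 4 weeks differed between the regions: the log2 fold change against mock was 1.73 ± 0.38 higher in midbrain than in cortex (edgeR adjusted p = 0.0398). This was 1 of 6 members, against 2.55% of all genes (1.9% in this direction and 0.644% in the other). The difference was lost in 10 of the 12 fits that left out a library (1.35 to 2.04 over all 12) and held without cortex mock library 1 or midbrain mock library 2. Among the fits that lost it were those without a 2-week library. The 2-week libraries take no part in this comparison, and the value without each was 1.73 to 1.74. For Junb the 4-week difference was 1.62 ± 0.60 (edgeR adjusted p = 0.245; 2.43 and 0.0293 without midbrain mock library 1) and the 2-week one 1.32 ± 0.58 (adjusted p = 0.501). For the 2-week responses edgeR called 0 of 6 members, against 0.685% of all genes (0.424% higher and 0.26% lower), with 3 at an unadjusted p under 0.05 and 0 by DESeq2.

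Genes around the members moved in both directions. The list of AP-1 partners covers further Fos, ATF and Maf family proteins. Of 10 tested, 3 were higher and 2 lower at 4 weeks and 2 and 1 at 2 weeks in midbrain, and 2 and 3 at each time in cortex. Counts of this and every following list are to be read against the shares of all genes. Over the 4 comparisons with mock these were 15.9 to 18.7% higher and 14.7 to 20.9% lower. Under total-read scaling they were 5.85 to 8.27% higher and 38.8 to 57.1% lower. Under total-read scaling the counts were 1 and 5, 0 and 3, 1 and 6 and 0 and 5, at 4 and 2 weeks in midbrain and 4 and 2 weeks in cortex. Mafg, a small Maf protein, rose at 4 weeks in midbrain (1.72 ± 0.24, edgeR adjusted p = 0.000255) and at 4 weeks (1.99 ± 0.23, adjusted p = 7.70e-05) and 2 weeks in cortex (1.41 ± 0.24, adjusted p = 0.000972). The last of these did not pass when scaled to total reads (0.66, adjusted p = 0.105). The median of the list was 0.38, 0.31, 0.48 and 0.34 at 4 and 2 weeks in midbrain and 4 and 2 weeks in cortex, and turned to -0.47, -0.35, -0.55 and -0.33 under total-read scaling.

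Among 19 tested other primary response factors, 3 were higher and 7 lower at 4 weeks and 4 and 4 at 2 weeks in midbrain, and 3 and 8 at 4 weeks and 4 and 7 at 2 weeks in cortex. Their medians were -0.26, -0.26, -1.21 and -0.50 in that order. Total-read scaling gave 1 and 11, 2 and 9, 1 and 13 and 1 and 10. Klf10, a zinc finger factor induced by TGF-beta, fell in midbrain at 4 weeks (-2.43 ± 0.36, edgeR adjusted p = 0.000383) and 2 weeks (-1.55 ± 0.33, adjusted p = 0.00442), with means of 1.97 ± 0.14 and 3.63 ± 0.489 CPM and 10.7 ± 2.77 CPM in mock. Nfil3, a bZIP repressor, fell in cortex at 4 weeks (-1.36 ± 0.24, adjusted p = 0.00112). Ier3 rose at 2 weeks in midbrain (1.42 ± 0.37, adjusted p = 0.0140). All of these passed under total-read scaling too.

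Of 28 tested kinases and transcription factors that act upstream of the members, 6 were higher and 8 lower at 4 weeks and 4 and 6 at 2 weeks in midbrain, and 6 and 10 at 4 weeks and 6 and 7 at 2 weeks in cortex, with medians of -0.41, -0.31, -0.57 and -0.22. Total-read scaling gave 2 and 17, 1 and 14, 3 and 19 and 3 and 16. Crem, a CREB family gene, rose at 4 weeks (2.04 ± 0.33, edgeR adjusted p = 0.000656) and 2 weeks in midbrain (1.65 ± 0.32, adjusted p = 0.00308) and at 2 weeks in cortex (1.74 ± 0.32, adjusted p = 0.00195). Mapk10, which encodes the JNK form known best from neurons, rose at 4 weeks in cortex (2.19 ± 0.37, adjusted p = 0.000889). Mef2c fell at 4 weeks (-4.07 ± 0.41, adjusted p = 3.08e-05) and 2 weeks in midbrain (-2.98 ± 0.36, adjusted p = 0.000132) and at 4 weeks in cortex (-3.38 ± 0.41, adjusted p = 0.000101). Map2k1, which encodes the ERK kinase MEK1, fell at 2 weeks in cortex (-3.22 ± 0.38, adjusted p = 9.69e-05). Each passed under total-read scaling as well.

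Feedback inhibitors, which switch the response off again, held 5 higher and 2 lower genes at 4 weeks and 5 and 1 at 2 weeks in midbrain, and 4 and 2 at 4 weeks and 5 and 2 at 2 weeks in cortex, of 15 tested, where 15.9 to 18.7% of all genes were higher and 14.7 to 20.9% lower. Total-read scaling gave 3 and 5, 4 and 3, 2 and 5, and 2 and 5, so that lower calls outnumbered higher ones in 3 of the 4 comparisons. The median log2 fold change, 0.09, 0.38, 0.12 and 0.34, likewise turned to -0.80, -0.31, -0.96 and -0.45. Sik1, a kinase induced by cAMP that restrains CREB coactivators, averaged 12.8 ± 0.295 CPM at 4 weeks in midbrain against 0.607 ± 0.322 CPM in mock (4.40 ± 0.47, edgeR adjusted p = 4.38e-05) and 10.4 ± 3.49 against 0.315 ± 0.117 CPM in cortex (5.03 ± 0.53, adjusted p = 3.62e-05). Nab1, a corepressor of EGR proteins, rose at 2 weeks in cortex (2.08 ± 0.36, adjusted p = 0.00125), and Dusp7, an ERK phosphatase, at 2 weeks in midbrain (1.58 ± 0.20, adjusted p = 0.000165). These 3 genes passed under total-read scaling too.

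Neuronal activity-regulated genes held 4 higher and 3 lower at 4 weeks and 3 and 2 at 2 weeks in midbrain, and 5 and 4 at 4 weeks and 4 and 4 at 2 weeks in cortex, of 13 tested, and 2 and 6, 2 and 3, 3 and 8 and 3 and 5 under total-read scaling. Penk, the enkephalin precursor gene, averaged 27.7 ± 0.516 CPM at 4 weeks and 40.4 ± 0.480 CPM at 2 weeks in midbrain against 0.469 ± 0.0275 CPM in mock (5.84 ± 0.29 and 6.39 ± 0.29, edgeR adjusted p = 3.10e-07 and 2.72e-07). In cortex at 2 weeks Penk averaged 35.3 ± 5.42 CPM against 0.743 ± 0.264 CPM (5.51 ± 0.28, adjusted p = 3.76e-07). Scg2 rose at 4 weeks in cortex (7.97 ± 0.61, edgeR adjusted p = 3.72e-06), and under total-read scaling by 6.99 (adjusted p = 1.88e-05). Rgs2, a brake on G protein signalling, fell at 4 weeks in midbrain (-0.71 ± 0.24, adjusted p = 0.0394). Arc and Npas4, at no more than 5 reads in any shPTB library, stand beside these values.

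**Figure D4:**
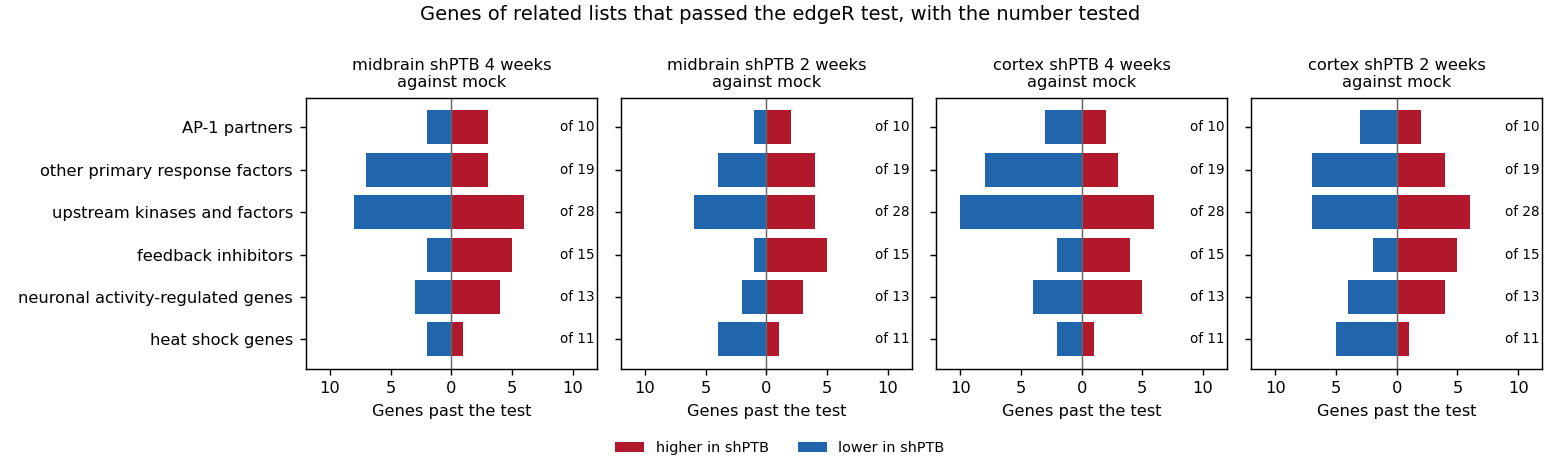
Number of genes past the edgeR test at an adjusted p of 0.05 (horizontal axis, higher in shPTB to the right in red, lower to the left in blue) for 6 lists around the members in the 4 comparisons with mock, with the number tested at the right. Feedback inhibitors have 4 or 5 higher and 1 or 2 lower genes under the TMM scaling shown, and upstream kinases and factors have 6 to 10 lower and 4 to 6 higher.

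Heat shock genes, which rise with cell stress, had 1 higher and 2 lower at 4 weeks and 1 and 4 at 2 weeks in midbrain, and 1 and 2 at 4 weeks and 1 and 5 at 2 weeks in cortex, of 11 tested, with summed levels of 297 to 395 CPM in shPTB and 417 to 753 CPM in mock libraries. Total-read scaling gave 1 and 8, 1 and 7, 1 and 9 and 1 and 10. Hspb1 fell in all 4 comparisons, by 2.26 to 3.6 on the log2 scale, and Hmox1 was the 1 higher gene in each (1.77 to 2.92). Proliferation genes fell in 13 of 14 at 4 weeks and 12 of 14 at 2 weeks in both regions, with summed levels of 113 to 179 CPM in shPTB and 367 to 683 CPM in mock libraries. Fibroblast and pericyte markers were higher in 3, 3, 2 and 3 and lower in 6, 5, 6 and 6 of 10 genes at 4 and 2 weeks in midbrain and 4 and 2 weeks in cortex. Their summed levels were 63.6 to 352 CPM in shPTB and 873 to 2274 CPM in mock libraries. Col3a1 was at 0 reads at 4 weeks in cortex, whereas Dcn was called higher in all 4 comparisons, though in none under total-read scaling. Oligodendrocyte markers were higher in 2, 5, 6 and 7 and lower in 3 of 11 tested genes in the same order, and endothelial markers higher in 0, 2, 0 and 0 and lower in 2, 2, 4 and 0 of 6. Oligodendrocyte markers summed to 232 to 270.2 CPM in shPTB and 268 to 307 CPM in mock libraries of midbrain, and to 420 to 467 CPM in shPTB and 172 to 193 CPM in mock libraries of cortex. Summed levels of proliferation, microglia, fibroblast and heat shock genes were lower in all shPTB than in all mock libraries, as Jun was, and the mitochondrial share was higher. The part of these lists and of the mitochondrial share in the members' values was not tested.

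Across the 12 libraries the members did not follow 1 pattern. Pearson's r of log2 CPM was 0.56 between Fos and Jun, -0.78 between Fosl2 and Jun, 0.78 between Fosl2 and Jund, and -0.19 between Fos and Fosl2. The genes most like Fos, of 5675 with a mean of at least 10 CPM, were Elobl (r = 0.988), Tagln2 (0.984), an actin-binding protein gene, and Morc4 (0.981). Tagln2 averaged 498, 590 and 1638 CPM at 4 weeks, 2 weeks and in mock in midbrain, and 70.2, 172 and 1208 CPM in cortex, the order of groups that Fos has apart from its 2 midbrain times. Junb was most like Stk39 (0.848), Vcam1 (0.847) and Uggt1 (0.845), and Egr1 most like Thap7 (0.885), Naa10 (0.866) and Zfp622 (0.865). These correlations describe 12 libraries that share depth and group differences, and they carry no test.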

How the data were processed

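Total RNA was reverse transcribed with a biotinylated primer, captured on streptavidin beads and given a random-primed second strand, per the labels' protocols. The submitters' processing notes name DESeq2, Salmon 0.14.1, cutadapt 2.3 and the build mm10; which annotation release they used is not given in these sources. Estimated counts, deposited per transcript, came from Salmon as the authors ran it and are not normalized. TPM, deposited beside them, corrects for effective length and served to compare levels between genes. That use assumes reads in proportion to transcript length, which was not tested for this protocol. PCR copies were counted as reads.

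Transcripts were matched to GENCODE M21 (GRCm38) without their version numbers: 140137 of 140658 matched, and the rest held 0.0547 to 0.129% of reads. Estimated counts were summed per gene and rounded, since 56.3% of values above 0 were not whole. Genes passed filterByExpr of edgeR (count minimum 10, total minimum 15), libraries were scaled by TMM (factors 0.680 to 0.953 in shPTB and 1.22 to 1.69 in mock), and a quasi-likelihood model (edgeR 4.0.16, R 4.3.3) covered all 6 groups (common dispersion 0.0550, 6 residual degrees of freedom), with 11 comparisons. Benjamini-Hochberg adjustment ran over 14607 genes, with a threshold of 0.05. Standard errors are the log2 fold change divided by the root of F. The procedure was tested on simulated counts. Alternatives were RLE size factors, total-read scaling, no count filter, leaving out mitochondrial genes, a replicate block, only the groups compared, DESeq2 1.42.0 and each library left out; leaving out both mock libraries of 1 number, and total-read scaling without mitochondrial genes, were added after seeing the data.

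The members, the 13 other gene lists and the tests were chosen with earlier results of these data known. From the lists, the called gene with the largest rise and that with the largest fall in a comparison with mock could be named, if its mean reached 10 CPM in either group and no libraries of the groups overlapped. Genes most like Fos, Junb and Egr1 were the 3 with the highest Pearson correlation; genes outside these rules are named for being at 0 reads. Promoters were matched by symbol to a RefSeq table, which held 7 of the 10 members.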

Additional observations from a re-analysis of the deposited data

Results flagged for a closer look

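The 4-week response of Fos differed between the regions in a test of the difference itself. The log2 fold change against mock was -0.92 ± 0.25 in midbrain and -2.65 ± 0.29 in cortex, a difference of 1.73 ± 0.38 (edgeR adjusted p = 0.0398). All 4 libraries at 4 weeks were lower than the mock libraries of their region, so the difference is one of size and not of direction. It was 1.69 (adjusted p = 0.0093) when libraries were scaled to total reads without mitochondrial genes, did not pass when only the 4 groups concerned were fitted (adjusted p = 0.132), and was lost when each of 10 libraries was left out in turn. Among these were the 2-week libraries, which take no part in the difference and left it at 1.73 to 1.74. At 4 weeks fibroblast and pericyte markers summed to 250.2 and 264 CPM in midbrain and 63.6 and 66.7 CPM in cortex, higher in midbrain as Fos was, and in mock to 2161 and 2274 CPM in midbrain and 873 and 899 CPM in cortex. Microglia markers ran the other way, with 28.3 and 25.6 CPM in midbrain and 42.7 and 40.2 CPM in cortex at 4 weeks. The mitochondrial share of reads was also lower in midbrain then, at 36.4 and 37.1% against 47.7 and 48.3% in cortex. Ptbp1 was 1.81-fold higher in midbrain than in cortex at 4 weeks (edgeR adjusted p = 0.0276). The part of these in the difference was not tested.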

How the results depend on the processing

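Of 15 calls among the tested members, 9 held in all 22 alternatives: Fos at both times in cortex, at 2 weeks in midbrain and between regions at 4 weeks, Jun in all 4 comparisons with mock, and Fosl2 at 2 weeks in cortex. The other 6 were lost somewhere, none changed direction, and of 51 results without a call 21 changed direction and 31 were called in at least 1 alternative. Calls over the 4 comparisons with mock numbered 13, 13 with the replicate block, 12 with total-read scaling, 15 with no count filter and 12 with only the groups compared. More members were called without both mock libraries numbered 1 or both numbered 2, as were more of all genes.

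Counts of members called that moved by over 1.5 times were as follows, and causes were not tested. Total-read scaling gave 2 at 4 weeks in midbrain, 2 between times in cortex, and 1, 1 and 3 between regions in mock, at 2 weeks and at 4 weeks. Without mitochondrial genes as well, these were 2, 1, 1, 1 and 2. Of all genes, total-read scaling called 57, 6.39, 2.07, 3.74 and 10% in that order. Without mitochondrial genes these shares were 45.1, 3.69, 2.17, 3.97 and 8.16%. No count filter gave 1, 1 and 3 between regions in mock, at 2 and at 4 weeks and 2 for the regional difference at 4 weeks. It called 2.13, 3.16, 5.81 and 2.88% of all genes in that order. Fits of only the groups compared gave 2 and 3 between times in cortex and midbrain, 3 and 4 between regions at 2 and 4 weeks, and 0 for the regional difference at 4 weeks. They called 24, 32.3, 26.8, 33.5 and 1.14% of all genes in that order. With both mock libraries of 1 number left out, more of all genes were called in every comparison than with all libraries. Without both mock libraries numbered 1 or 2, counts were 5 and 5 at 2 weeks in midbrain, 5 and 5 at 2 weeks and, for number 2, 5 at 4 weeks in cortex, 3 and 3 between times in each region, 2 and 3 in mock, 3 and 3 at 2 weeks, 4 and 4 at 4 weeks, and for the regional differences 4 and 2 at 2 weeks and 3 and 2 at 4 weeks. Leaving out 1 library gave 1 to 4 at 4 weeks and 2 to 3 at 2 weeks in midbrain, 2 to 5 at 4 weeks and 3 to 4 at 2 weeks in cortex, 0 to 0 between times, 0 to 1 in mock and at 2 weeks and 1 to 3 at 4 weeks between regions, and 0 to 0 and 0 to 1 for the regional differences at 2 and 4 weeks. The lowest count at 4 weeks in midbrain, 1, came without either 4-week library, the lowest in cortex, 2, likewise, and the highest in cortex, 5, without cortex mock library 2. Between regions, 1 at 2 weeks and 3 at 4 weeks came when each mock library was left out in turn, and 1 in mock without cortex mock library 2. Smaller moves in comparisons with mock came from Junb, called with no count filter at 2 weeks in midbrain (adjusted p = 0.0194; 4 members) and 4 weeks in cortex (adjusted p = 0.0111; 4 members) and without both mock libraries numbered 1 at 4 weeks in midbrain (adjusted p = 4.19e-05; 5 members), and from Jund, lost there with only the groups compared (adjusted p = 0.0679; 3 members). Other such counts were 2 at 2 weeks in midbrain and 4 at each time in cortex with total-read scaling, and 4 at 4 weeks in cortex with that scaling without mitochondrial genes or without both mock libraries numbered 1.

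The replicate block, which pairs libraries by number, changed 1 call: Fos passed between regions at 2 weeks (1 member called, 1.12, edgeR adjusted p = 0.041), as DESeq2 also gave (1). Differences between replicates 1 and 2 correlated at 0.715 between the mock groups and at -0.0274 to 0.0306 between all other pairs of groups, and the labels do not say that numbers pair libraries.

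Log2 fold changes without a call changed sign as follows. With total-read scaling, Egr1 was -0.68 at 4 weeks in midbrain and -0.50 and -0.11 at 4 and 2 weeks in cortex, Junb -0.25 at 4 weeks in midbrain, Jund -0.28 at 2 weeks in midbrain, -0.65 and -0.44 at 4 and 2 weeks and -0.21 between times in cortex, Fosl2 -0.15 between times in midbrain and 0.059 for the 4-week regional difference, and Jun 0.10 between regions at 2 weeks and 0.052 for the 2-week regional difference. Without mitochondrial genes as well, Egr1 was -0.30, Jund -0.052 and -0.086 at 4 and 2 weeks in cortex, Fosl2 -0.19 between times in midbrain, and Jun 0.099 and 0.098. Without a filter, Jun was 0.0024 between regions at 2 weeks. Without both mock libraries numbered 1, Fosl2 was 0.043 for the 4-week regional difference, Junb 0.11 at 2 weeks in cortex, and Jund -0.052 and -0.19 at 4 and 2 weeks in cortex and -0.017 in mock. Without those numbered 2, Egr1 was -0.052 at 4 weeks in midbrain, Jun -0.15 in mock and 0.12 and Jund -0.16 for the 2-week regional difference. Leaving out 1 library at a time gave these ranges for values that crossed 0. Fosl2 ran from -0.0091 to 0.10 between times in midbrain and from -0.68 to 0.31 (0.21 without midbrain mock library 2) for the 4-week regional difference. Jun ran from -0.25 to 0.029 between times in cortex, from -0.16 to 0.25 in mock, from -0.11 to 0.086 between regions at 2 weeks (0.010 without midbrain 2-week library 2) and from -0.27 to 0.14 for the 2-week regional difference (0.056 without cortex 2-week library 2). Junb ran from -0.82 to 0.10 at 2 weeks in cortex and from -1.22 to 0.093 in mock (0.060 without cortex mock library 1). Jund ran from -0.054 to 0.92 at 4 weeks and from -0.19 to 0.79 at 2 weeks in cortex, from -0.24 to 0.74 in mock (-0.095 without midbrain mock library 2), and from -0.42 to 0.55 (-0.078 without midbrain mock library 1) and from -0.075 to 0.90 for the regional differences at 2 and 4 weeks. Egr1 ran from -0.18 to 0.085 between times in cortex, from -0.057 to 0.55 at 4 weeks in midbrain and from -1.19 to 0.026 for the 4-week regional difference.

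Depth limits Fosb, Npas4, Arc and Ier2, which rest on 0 to 11 reads per library, and Egr1, with 19 to 103. With 2 libraries a group, a value that missed the threshold does not show equality.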
